A study of Homo sapiens with 30 samples.

Results

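The genes described here encode the caveola, a small flask-shaped pit of the plasma membrane, and were taken by symbol from the gene counts of A375, a human melanoma cell line in wide use. They are the caveolins CAV1 and CAV2, the coat protein PTRF (now named CAVIN1), the neck ATPase EHD2 and the membrane-bending proteins PACSIN2 and PACSIN3, 6 of the 26364 genes listed. All 6 passed the filter on low counts that left 15381 genes for testing.

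The 30 libraries of polyadenylated RNA fell into 10 groups of 3, set by surface integrin β4 (ITGB4, a laminin receptor subunit) and by passage through membranes with pores of 5 µm, coated below with fibronectin and with serum only in the lower medium. Sorting used an anti-ITGB4 antibody on either of a pair of instruments, not given per library. Parental negative and Parental positive cells were sorted without migration. Top 10 cells had stayed above the membrane and Bottom 10 cells had crossed it in 10 rounds, and both were sorted into negative and positive cells. In 5 rounds, Top 5 positive cells had stayed above and Bottom 5 negative cells had crossed. In the presorted groups, parental cells were sorted first and then crossed, for 4 rounds after the negative sort (presorted negative Bottom 4) and for 5 after the positive sort (presorted positive Bottom 5). All groups came from the 1 cell line, and a clone that the series text names was not analysed here. That text speaks of 5 rounds, and the number of rounds was taken from the titles. The labels number biological replicates without saying that each was its own culture, so p-values reflect only how these libraries vary.

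Caveolin oligomers sit in the inner leaflet and form the core of the pit, while cavins assemble around them as an outer coat. EHD2 forms rings at the neck that hold the pit at the surface, and PACSIN proteins bend membrane through an F-BAR domain. Caveolae can flatten when a membrane is stretched and so provide spare membrane. CAV1 and CAV2 are neighbours on chromosome 7, and the CAV2 protein depends on CAV1 to reach the surface.

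The stretches just before the starts of CAV2, CAV1 and EHD2 are shown because these members lay higher together in crossed cells below, and because the caveolins differ in base composition. They come from RefSeq on GRCh38.p14, all on the plus strand. Of the 6 genes, 4 had an entry there, and PACSIN2 is left out because the bases after its listed start were in no GENCODE transcript of the gene. Lower case gives the 250 bases before the start, 5′ to 3′, and capitals mark the GC box GGGCGG, the core of Sp-family sites, or its reverse complement.
CAV2, chr7:116499488-116499737: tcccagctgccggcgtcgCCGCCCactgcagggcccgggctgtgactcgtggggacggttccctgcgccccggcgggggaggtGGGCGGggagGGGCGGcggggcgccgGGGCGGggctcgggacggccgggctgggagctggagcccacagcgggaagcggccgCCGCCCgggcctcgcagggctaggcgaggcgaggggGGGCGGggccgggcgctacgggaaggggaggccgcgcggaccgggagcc
CAV1, chr7:116524759-116525008: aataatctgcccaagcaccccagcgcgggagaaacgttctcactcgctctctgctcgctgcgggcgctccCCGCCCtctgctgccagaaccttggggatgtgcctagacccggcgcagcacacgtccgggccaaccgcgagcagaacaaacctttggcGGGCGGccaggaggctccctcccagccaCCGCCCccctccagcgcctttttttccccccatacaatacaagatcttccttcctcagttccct
EHD2, chr19:47713172-47713421: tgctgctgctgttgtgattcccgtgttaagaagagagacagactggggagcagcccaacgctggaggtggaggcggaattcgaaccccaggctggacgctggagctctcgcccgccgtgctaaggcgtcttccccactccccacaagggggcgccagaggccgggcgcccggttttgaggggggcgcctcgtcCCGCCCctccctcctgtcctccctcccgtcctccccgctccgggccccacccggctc
The CAV2 stretch was 83.2% G or C and held 6 GC boxes. CAV1 was at 63.6% with 3 GC boxes, and EHD2 at 69.6% with 1. Of 24885 stretches of the same length, 41.7% held a GC box on either strand. None of the 3 held the AP-1 letters TGANTCA, found in 6.67% of all stretches, or the TEAD letters GGAATG, found in 12% of them. A match is a run of letters in this window and not a measured site.

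Reads assigned to genes numbered 14258919 to 29134945 per library, and member counts ran from 242 for CAV2 to 19627 for PTRF. Of the melanoma markers, SOX10 lay between 258.1 and 1462 CPM (the reads of a gene scaled to its library's gene counts), S100B between 10.4 and 168.4 and MITF between 23.6 and 69.4. The pigment genes MLANA, PMEL and TYR stayed at or below 1.47 CPM in every library, and DCT ran from 0 to 14.9. ITGB4, in CPM scaled further with TMM factors, lay between 24.6 and 33.7 in the Parental negative libraries. In the Parental positive ones it lay between 35.2 and 168.3, with no overlap. The difference of 1.85 ± 0.87 (log2) did not pass edgeR's quasi-likelihood test. Marker levels were also summed per group, with the same scaling and only over markers that passed the filter on low counts. They ran from 80.7 to 161.1 CPM for keratinocytes (mostly KRT10) and 9.36 to 22.6 for fibroblasts. For endothelium they ran from 4.73 to 11.3, and for immune cells (CD68 alone) from 50.2 to 96.3. CD3E and MS4A1 had no count in 30 libraries, and PECAM1, PTPRC and KRT5 did not exceed 0.298, 0.167 and 0.853 CPM without TMM factors. A set of 6 libraries stood apart on the second principal component of all genes (score above 30), and values without them are given where they change a result.

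Expressed as CPM scaled with TMM factors, as are all levels below unless stated, the members differed most in how far they ranged across the 30 libraries. CAV1 ran from 35.1 to 700.9 CPM, a ratio of 19.96, and its spread on the log2 scale was above that of 96.2% of tested genes. CAV2 ran from 12.3 to 74.3, EHD2 from 47.0 to 248.6 and PTRF from 200.6 to 858.4. PACSIN2 ran from 28.4 to 103.6 and PACSIN3 from 106.9 to 234.5, and the PACSIN3 spread exceeded that of 14.4% of genes. Divided by the length of the longest coding transcript, the mean levels per kilobase were 143.9 CPM for PTRF, 96.2 for CAV1, 68.0 for PACSIN3, 41.8 for EHD2, 21.2 for PACSIN2 and 10.4 for CAV2. CAV2 thus had the lowest level per length of the 6. With the median transcript PACSIN3 came first, at 176.6 CPM per kilobase.

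Top 10 negative cells had the lowest group mean of CAV1, CAV2, PTRF and EHD2. Presorted negative Bottom 4 cells had the highest of CAV1 and CAV2, Parental positive cells of PTRF and Bottom 10 positive cells of EHD2. Along the order of the 10 group means, neighbours had overlapping libraries in all 9 steps for CAV1, PTRF, EHD2, PACSIN2 and PACSIN3. For CAV2 they overlapped in 8, and the step between Bottom 10 negative (27.2 ± 3.05 CPM, SD, n = 3) and Parental negative (19.6 ± 3.68) had no overlap.

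**Figure D1:**
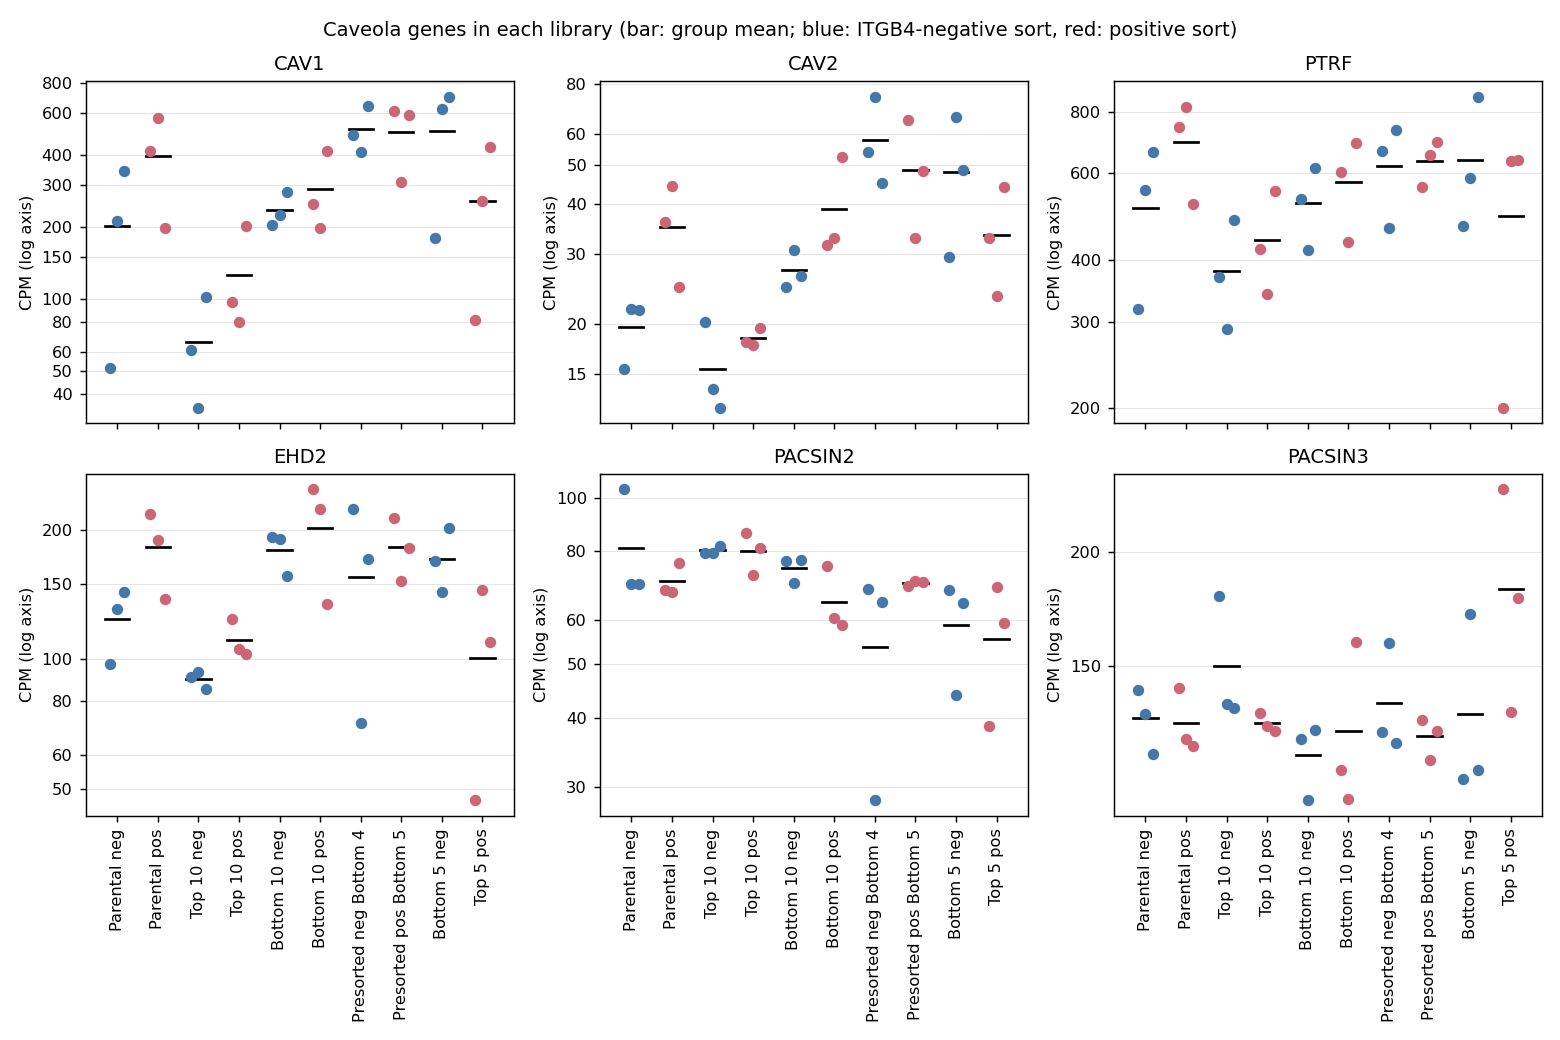
Level of each member in every library as TMM-scaled CPM on a log axis; points are the 3 libraries of a group, bars are group means, and colour gives the ITGB4 sort. CAV1 runs from 35.1 to 700.9 CPM, while PACSIN3 stays between 106.9 and 234.5.

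The first comparison set cells that had crossed in 10 rounds against cells that had not, within each sort. The caveolins, PTRF and EHD2 had higher means in crossed cells of both sorts, and the PACSIN genes had lower ones. With replicate numbers as pairs in a fit of only the groups taken through 10 rounds, CAV1, PTRF and EHD2 rose in both sorts, and CAV2 in the positive sort. Not all of these calls held when single pairs were left out. With the replicate number as a block over all 10 groups, no member was called in either sort. In the unpaired fit of all 10 groups none of the 6 passed the threshold, and EHD2 passed in some unpaired fits of fewer libraries. The RNA is from bulk cells, in which fewer expressing cells and less RNA per cell cannot be told apart.

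CAV1 was 61.2, 35.1 and 102.1 CPM in the Top 10 negative libraries 1, 2 and 3. In Bottom 10 negative cells it was 203.7, 223.6 and 281.2 CPM. Every crossed library lay above every uncrossed one, and the ratios within same-numbered pairs were 3.33, 6.37 and 2.75. Among positive cells, CAV1 was 97.2, 80.0 and 201.2 CPM in Top 10 cells. It was 249.8, 197.4 and 414.0 CPM in Bottom 10 cells. Here the groups overlapped, since library 2 of the crossed cells lay just below library 3 of the uncrossed cells, while the pair ratios were 2.57, 2.47 and 2.06.

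CAV2, the partner of CAV1, was 20.2, 13.8 and 12.3 CPM in Top 10 negative cells. In Bottom 10 negative cells it was 24.7, 30.6 and 26.4 CPM. The groups did not overlap, though the pair ratio of 1.22 in number 1 was well below the 2.23 and 2.14 of the others. In Top 10 positive cells CAV2 was 18.0, 17.7 and 19.6 CPM, the tightest group for this gene. In Bottom 10 positive cells it was 31.5, 32.8 and 52.3 CPM. All crossed libraries were above the uncrossed ones, with pair ratios from 1.75 to 2.67.

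PTRF, which encodes the cavin without which the coat does not form, was 369.6, 289.6 and 482.9 CPM in Top 10 negative cells. It was 532.7, 419.8 and 615.3 CPM in Bottom 10 negative cells. These groups overlapped, yet each pair moved by a like amount, 1.44, 1.45 and 1.27. Among positive cells PTRF was 420.6, 341.9 and 553.1 CPM above the membrane. It was 604.7, 434.4 and 689.7 CPM below it. The pair ratios were 1.44, 1.27 and 1.25, and library 2 was lowest in each of these 4 groups.

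EHD2, the ring-forming ATPase of the neck, was 91.2, 93.5 and 85.1 CPM in Top 10 negative cells. It was 192.8, 190.8 and 155.8 CPM in Bottom 10 negative cells. The groups were far apart relative to their spread, with pair ratios of 2.11, 2.04 and 1.83. Among positive cells EHD2 was 124.2, 105.4 and 103.1 CPM above the membrane. It was 248.6, 224.1 and 134.2 CPM below it. The groups did not overlap, and the ratio of 1.30 in number 3 fell short of the 2.00 and 2.13 of the other pairs.

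The pair ratios of the PACSIN genes lay mostly below 1. PACSIN2, the broadly expressed F-BAR member, was 79.5, 79.5 and 81.9 CPM in Top 10 negative cells and 76.8, 70.2 and 77.2 in Bottom 10 negative cells, with pair ratios of 0.965, 0.883 and 0.943. Its pair ratios among positive cells were 0.869, 0.833 and 0.726. PACSIN3 was 178.9, 136.2 and 135.1 CPM above and 124.8, 106.9 and 127.7 below the membrane in the negative sort, without overlap, with ratios of 0.698, 0.785 and 0.945. Library 1 of the uncrossed cells, the highest of these, is 1 of the libraries that stood apart. Among positive cells the PACSIN3 ratios fell on both sides of 1 (0.865, 0.833 and 1.25), and neither gene passed in the paired fit (edgeR adjusted p from 0.117 to 0.889).

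**Figure D2:**
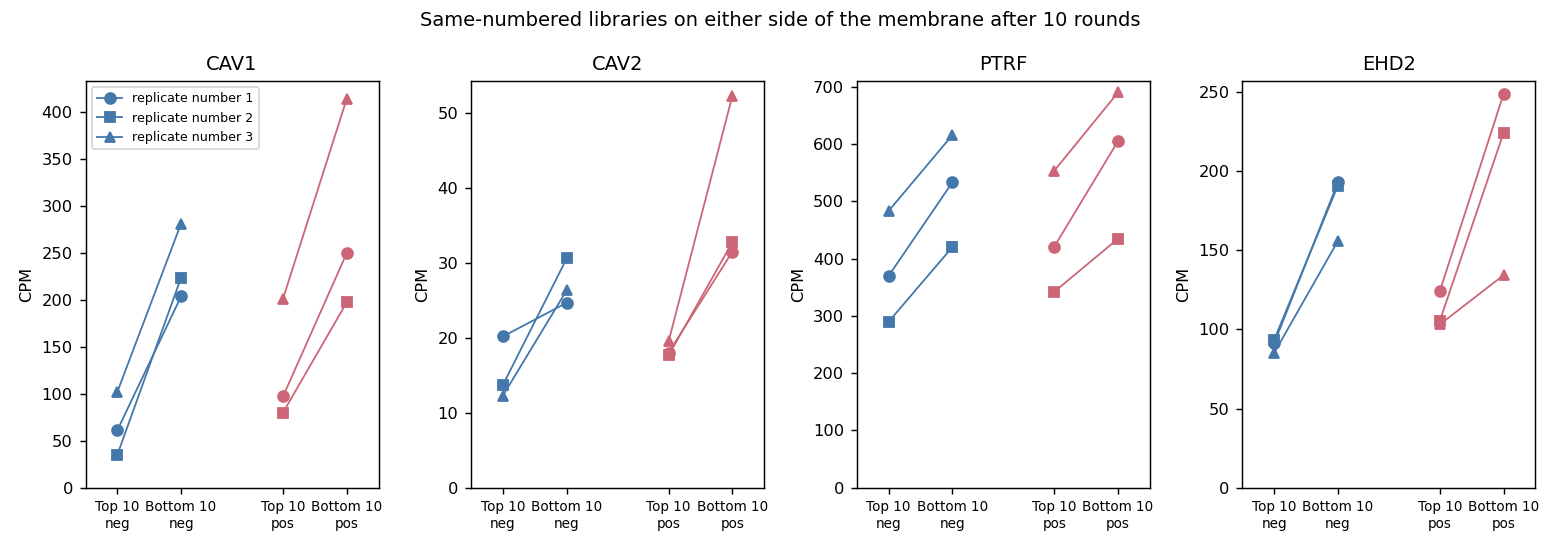
CPM of CAV1, CAV2, PTRF and EHD2 in the 4 ten-round groups on linear axes from 0, with lines joining libraries that share a replicate number. All lines rise from Top 10 to Bottom 10; the CAV1 ratios run from 2.06 to 6.37 and the PTRF ratios from 1.25 to 1.45.

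In edgeR's quasi-likelihood test over all 10 groups, called genes made up 1.33% of those tested in the negative sort and 0.943% in the positive sort, and no member was among them. At an unadjusted p below 0.05 there were 3 members in the negative sort and 2 in the positive, against 9.04 and 9% of all genes, and DESeq2 also called 0 in each. The share of all genes that DESeq2 called is not given, so its counts of 0, here and below, have no background beside them. The libraries of 3 of 6 members lay wholly higher in crossed negative cells (CAV1, CAV2 and EHD2) and those of 2 wholly lower (PACSIN2 and PACSIN3), where 8.68 and 7.43% of all genes did so. In the positive sort 2 members (CAV2 and EHD2) lay wholly higher and 0 wholly lower, where 7.61 and 7.58% of all genes did so. Over the 6 members the paired median log2 difference was 0.64 in the negative sort and 0.62 in the positive, where that of all genes was -0.0021 and 0.022.

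Same-numbered libraries of the 4 ten-round groups deviated together, and a fit of these groups with the replicate number as a block called 9.29% of genes in the negative sort and 7.75% in the positive. It called 3 members higher in the negative sort and 4 in the positive, where 4.7 and 3.93% of all genes were called higher. CAV1 rose by 1.97 ± 0.21 (log2 fold change ± SE) among negative cells (edgeR adjusted p = 0.000451) and by 1.23 ± 0.20 among positive cells (0.00555). EHD2 rose by 0.99 ± 0.15 (adjusted p = 0.0034) and 0.84 ± 0.15 (0.009). PTRF rose by 0.47 ± 0.098 (adjusted p = 0.0151) and 0.40 ± 0.098 (0.0372). CAV2 rose by 1.06 ± 0.23 in the positive sort (adjusted p = 0.0203) and had a value of 0.82 ± 0.23 in the negative sort that missed the threshold (0.055). With the block over all 10 groups, no member was called in either sort. The fits differ in their groups as well as in the block. For CAV1 among negative cells the unpaired fit of 10 groups gave 1.84 ± 0.62, the block over 10 groups 1.89 ± 0.54 and the 4 ten-round groups without a block 1.83 ± 0.44. Cell type markers were called in the same paired fits. Of 5 melanoma markers tested, 1 rose and 1 fell in the negative sort (DCT by 1.78 ± 0.36, adjusted p = 0.013, and S100B at -0.82 ± 0.18, 0.0166), and 2 fell among positive cells (S100B at -0.85 ± 0.18, 0.0176, and MITF at -0.65 ± 0.14, 0.0177). The macrophage gene CD68 rose by 0.52 ± 0.11 (adjusted p = 0.0137) and 0.81 ± 0.11 (0.00183). The collagen gene COL1A1, 1 of 4 fibroblast markers, rose by 1.25 ± 0.24 (0.00921) in the negative sort, from a mean of 2.20 CPM in uncrossed to 5.24 in crossed cells. The keratin gene KRT14, 1 of 2 keratinocyte markers tested, rose by 1.46 ± 0.36 (0.035) among positive cells, and 0 of 2 endothelial markers were called. Their part in the caveola values was not tested.

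These calls rested on 3 pairs, which the labels do not state. Without pair 1, 2 or 3 the members called numbered 3, 1 and 3 in the negative sort, where 3.51, 0.796 and 13.1% of all genes were called. Among positive cells they numbered 1, 0 and 3, where 4.39, 0.631 and 5.71% of all genes were called. CAV1 in the negative sort was the member called in each of these fits, with log2 fold changes between 1.60 and 2.19. Without the 6 libraries that stood apart, and with no pairing, EHD2 alone was called, at 1.00 ± 0.22 in the negative sort (edgeR adjusted p = 0.034, with 0.861% of genes called) and 1.07 ± 0.21 in the positive (0.0157, with 0.811% called). EHD2 was also the member called among negative cells with only the 4 ten-round groups and no block (0.04, with 1.85% called) and with only the groups compared (0.0351, with 1.1% called). In those fits of positive cells edgeR called 0 members, with 1.23 and 0.22% of genes called.

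**Figure D3:**
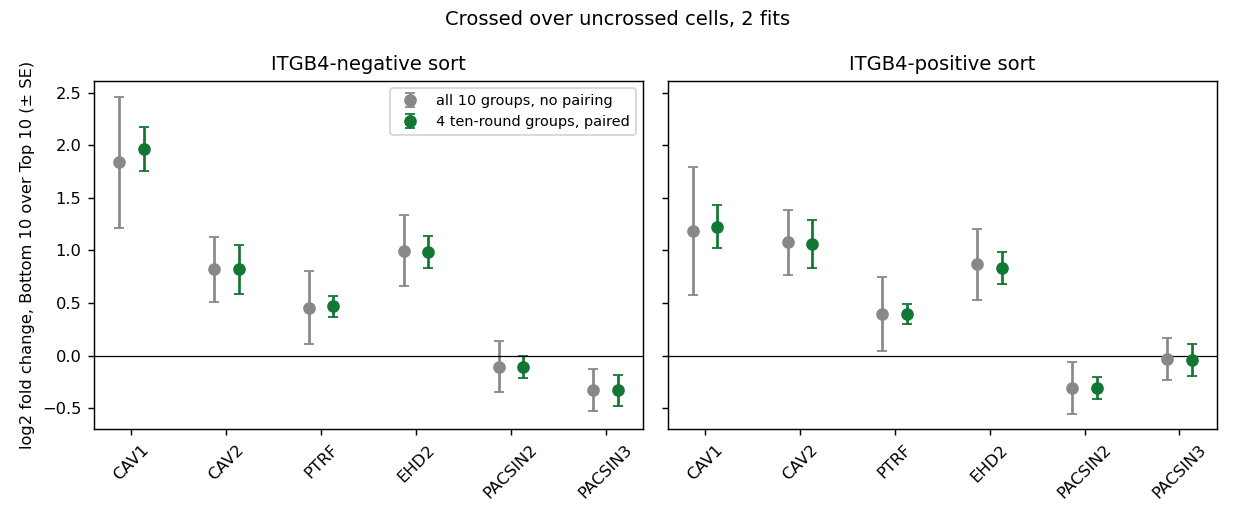
Log2 fold change with its SE for Bottom 10 over Top 10 cells in each sort, from the fit of all 10 groups (grey) and the paired fit of the 4 ten-round groups (green). The estimates of a gene lie close in the fits, and the SE of CAV1 in the negative sort is 0.62 in the first and 0.21 in the second, which also holds fewer groups.

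Whether the crossing difference depended on the sort was asked with an interaction term. No member passed in either edgeR fit, with 0% of genes called in both, and DESeq2 called 0. At an unadjusted p below 0.05 there were 0 members in the unpaired fit, against 2.87% of all genes. The largest paired value was that of CAV1, whose positive minus negative difference was -0.74 ± 0.29 on the log2 scale (edgeR adjusted p = 0.362). The others lay between -0.20 ± 0.15 for PACSIN2 and 0.29 ± 0.21 for PACSIN3.

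Cells sorted as negative and then taken across 4 times, and cells that crossed 5 times and were negative, were each set against Parental negative cells. ITGB4 RNA was 321.6, 27.2 and 56.4 CPM in the former and 157.0, 51.0 and 51.0 in the latter. It was 24.6, 33.7 and 25.1 in Parental negative cells. The ITGB4 differences of 2.28 ± 0.88 and 1.63 ± 0.86 (log2) did not pass (edgeR adjusted p = 0.164 and 0.611). CAV2 was the member that passed in both comparisons. It was 15.4, 21.8 and 21.7 CPM in Parental negative cells. In presorted negative Bottom 4 cells it was 53.9, 74.3 and 45.2 CPM, each more than the highest parental library. The log2 fold change was 1.56 ± 0.31, a fold of 2.94 (edgeR adjusted p = 0.00897), where 2% of genes were called and 0.904% called higher. Without the libraries that stood apart it was 1.33 ± 0.27 (adjusted p = 0.0219, with 1.6% of genes called). Leaving out Parental negative library 1 brought the adjusted p to 0.0974, and a fit of the compared groups alone gave 0.239 at 1.56 ± 0.29, where 0% of genes were called. The fibroblast proteoglycan gene DCN was also called here (1.63 ± 0.43, adjusted p = 0.0495), at a mean of 1.86 CPM against 0.591 in parental cells, and its part in the CAV2 value was not tested.

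In Bottom 5 negative cells CAV2 was 29.4, 66.0 and 48.6 CPM, again with no overlap with the parental libraries. It rose by 1.29 ± 0.31 on the log2 scale (edgeR adjusted p = 0.046), where 0.858% of genes were called and 0.267% called higher. The call was lost with RLE scaling factors (0.0506), with no filter on low counts (0.0595), with the compared groups alone (0.357), without the libraries that stood apart (0.98 ± 0.27, 0.157, with 0.478% of genes called) and without any 1 of Parental negative libraries 1, 2 and 3 and Bottom 5 negative libraries 2 and 3 (0.08 to 0.3395). Same-numbered libraries of these 2 groups deviated together. A fit of the pair of groups with that block called CAV2 at 1.25 ± 0.18 (edgeR adjusted p = 0.0127) and CAV1 at 1.48 ± 0.19 (0.0107), where 3.82% of genes were called. Without the block, the same groups gave 0% of genes called. The pairing came from these data and not from the labels, and the blocked fit was chosen after seeing them. The 2 comparisons share their 3 parental libraries and are not independent of each other.

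CAV1 spread widely among those parental libraries, at 51.3, 212.3 and 341.7 CPM. In presorted negative Bottom 4 cells it was 482.4, 411.6 and 638.9 CPM. These groups did not overlap, but the log2 fold change of 1.34 ± 0.61 did not pass (edgeR adjusted p = 0.23). In Bottom 5 negative cells CAV1 was 180.0, 623.3 and 700.9 CPM. Library 1 fell within the parental range, and the unpaired value was 1.31 ± 0.61 (adjusted p = 0.513). Library 1 of Parental negative cells was the lowest of its group in all of CAV1, CAV2, PTRF and EHD2, and library 1 of Bottom 5 negative cells was the lowest of its group in CAV1, CAV2 and PTRF.

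PACSIN2 libraries lay wholly below the parental ones in both comparisons, at 68.4, 28.4 and 64.7 CPM in presorted negative Bottom 4 and 68.0, 44.0 and 64.5 in Bottom 5 negative against 103.6, 69.9 and 69.9. Neither difference passed (-0.59 ± 0.24, edgeR adjusted p = 0.191, and -0.46 ± 0.24, 0.61). With CAV1 and CAV2 wholly higher, 2 members lay higher and 1 lower in the presorted comparison, where 9.45 and 8.95% of genes did so. In the Bottom 5 comparison 1 member lay wholly higher and 1 lower, where 7.15 and 6.59% of genes did so. PTRF and EHD2 had values of 0.28 to 0.47 in the 2 comparisons and did not pass.

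**Figure D4:**
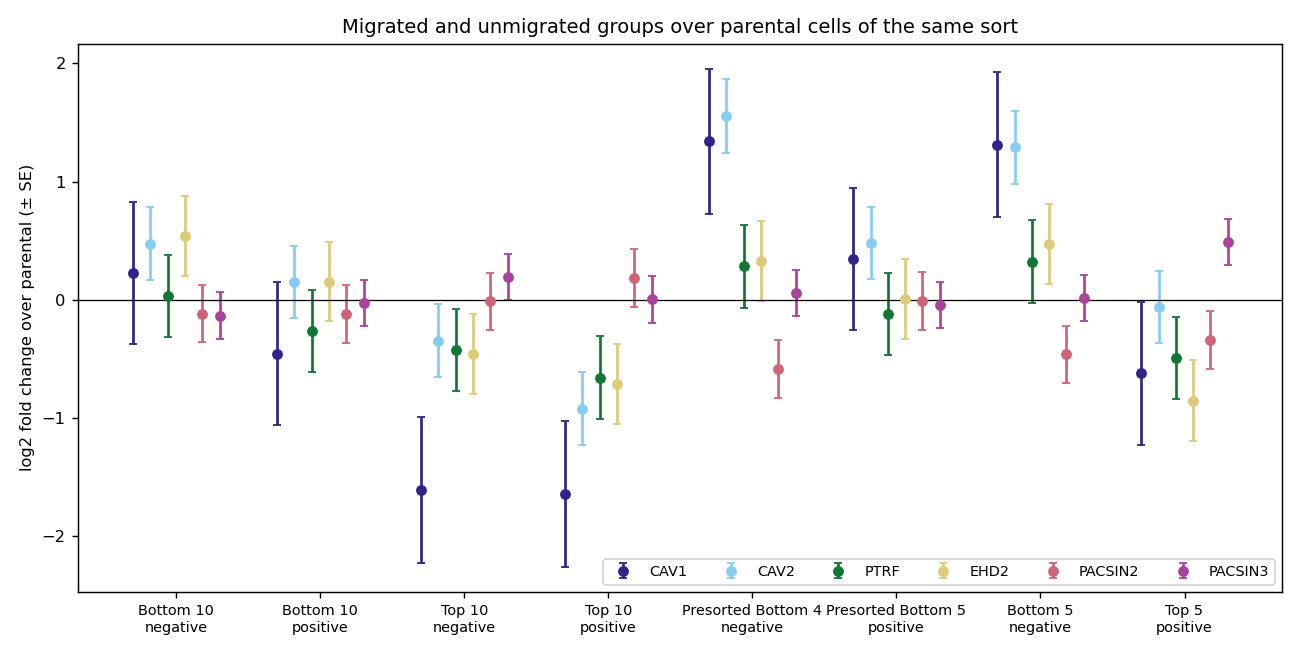
Log2 fold change with its SE of each member over parental cells of the same sort, in the fit of all 10 groups. CAV2 is highest in presorted Bottom 4 (1.56) and CAV1 lowest in the Top 10 groups (-1.61 and -1.64).

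No member passed in the matched groups of the positive sort. Parental positive libraries had CAV2 at 36.0, 44.2 and 24.7 CPM and CAV1 at 416.3, 569.5 and 197.2. In presorted positive Bottom 5 cells CAV2 was 64.9, 32.8 and 48.3 CPM and CAV1 was 607.9, 306.9 and 585.6. The groups overlapped for all 6 members, where 14% of genes did not. Both edgeR and DESeq2 called 0, where edgeR called 0.039% of genes. At an unadjusted p below 0.05 there were 0 members, against 3.01% of all genes. Between presorted positive Bottom 5 and presorted negative Bottom 4 cells both tools called 0 members, and edgeR called 0% of genes. No member was at an unadjusted p below 0.05 there, against 3.67% of all genes. The CAV2 value was -0.25 ± 0.30 and that of CAV1 -0.03 ± 0.60. Of the members, PACSIN2 alone had libraries wholly apart there, higher in the positive group, as in 2.07% of genes. The difference of the positive from the negative response to 4 or 5 rounds was not tested, since the rounds differ.

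After 10 rounds, the mean values of crossed cells lay around those of parental cells, and none passed. Bottom 10 over Parental gave CAV1 0.23 ± 0.60 in the negative sort and -0.46 ± 0.60 in the positive. In each, edgeR and DESeq2 called 0 members, where edgeR called 0.325 and 0.247% of genes. No member was at an unadjusted p below 0.05, where 7.64 and 8.3% of all genes were. CAV2 and EHD2 libraries lay wholly higher than parental in the negative sort, where 9.03% of genes did so, with values of 0.47 ± 0.31 and 0.54 ± 0.34. All 6 overlapped in the positive sort, where 19.5% of genes did not. The term for a difference of this contrast between the sorts called 0 members by edgeR or DESeq2 and 0% of genes by edgeR. It was -0.69 ± 0.85 for CAV1, and no member was at an unadjusted p below 0.05, against 3.01% of all genes. The melanocyte regulator MITF was called lower in Bottom 10 than in Parental positive cells (-1.04 ± 0.21, edgeR adjusted p = 0.0243).

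Top 10 cells had a CAV1 value of -1.61 ± 0.62 against Parental negative (edgeR adjusted p = 0.805) and -1.64 ± 0.62 against Parental positive (0.367), a fold of 3.05 and 3.13 lower. Their libraries overlapped the parental ones in both sorts, since Parental negative library 1 and Parental positive library 3 were low. CAV2 and EHD2 libraries in Top 10 positive cells lay wholly below Parental positive, as did 8.64% of genes, at -0.92 ± 0.31 (0.274) and -0.71 ± 0.34 (0.542). EHD2 lay wholly below in the negative sort too, as did 5.4% of genes. No member was called, where 0.0455 and 0.384% of genes were, and DESeq2 called 0. At an unadjusted p below 0.05 there were 1 and 3 members, against 4.74 and 9.05% of all genes.

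Top 5 positive cells, uncrossed in 5 rounds, had CAV1 at 81.8, 255.6 and 430.2 CPM, PTRF at 200.6, 634.8 and 639.7 and EHD2 at 47.0, 144.8 and 109.8. Library 1 was the lowest of the 3 in each. Against Parental positive all 6 overlapped, where 18.3% of genes did not. No member passed (edgeR and DESeq2 each called 0), where 0.163% of genes were called by edgeR. At an unadjusted p below 0.05 there were 2 members, against 17.4% of all genes. EHD2 was at -0.86 ± 0.34 and PACSIN3 at 0.49 ± 0.20. Presorted positive Bottom 5 cells crossed in the same number of rounds but were sorted before migration. They gave EHD2 0.86 ± 0.34 and PACSIN3 -0.53 ± 0.20 over Top 5 positive, again with 0 members called by either tool. Of all genes, edgeR called 2.05% there. Members at an unadjusted p below 0.05 numbered 2, against 19.8% of all genes. EHD2 and PACSIN2 lay wholly higher and PACSIN3 wholly lower there, as did 11.8 and 10.3% of genes. Without Top 5 positive library 2, both contrasts called EHD2 and PACSIN3 (edgeR adjusted p from 0.0371 to 0.0485), where 7.69 and 8.24% of genes were called. The libraries then left, 1 and 3, both stood apart on the second component.

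Positive and negative sorts were next compared with each other at a given stage. ITGB4 RNA overlapped between the sorts in Top 10 and Bottom 10 cells, at unpaired values of 1.97 ± 0.88 and 1.41 ± 0.85. The paired fits of these cells called ITGB4 higher in the positive sort, at 1.86 and 1.22. By edgeR no member passed in Parental, Top 10 or Bottom 10 cells, and none in the paired fits of the latter pair. DESeq2 called 0. At an unadjusted p below 0.05 there were 1, 0 and 0 members, against 4.45, 1.71 and 3.57% of all genes. Called genes made up 0.0585, 0.013 and 0% of those tested, and 0.24 and 0.83% in the paired fits of the Top 10 and Bottom 10 cells. CAV2 lay wholly higher in Parental positive cells, as did 4.47% of genes, at 0.83 ± 0.31 (edgeR adjusted p = 0.73). It lay wholly higher in Bottom 10 positive cells too, as did 5.48% of genes, at 0.51 ± 0.31. EHD2 lay wholly higher in Top 10 positive cells, as did 2.96% of genes, and PACSIN3 wholly lower, as did 2.89%. CAV1 in Top 10 cells was higher in the positive library of each of the 3 pairs, by ratios of 1.59 to 2.28, with a paired value of 0.94 ± 0.20 (adjusted p = 0.147). Of the 6 members, 4, 4 and 5 had positive values in the 3 sorts.

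Levels of PACSIN3, PACSIN2, EHD2 and CAV2 in the 6 libraries that stood apart are set here beside those in the rest. The 6 libraries were Top 10 negative 1, Bottom 10 positive 3, presorted negative Bottom 4 library 2, Bottom 5 negative 2 and Top 5 positive 1 and 3. They were the 6 highest of 30 for PACSIN3, at 159.0 to 234.5 CPM, against 106.9 to 142.0 in the other 24. For PACSIN2 they held 5 of the 6 lowest libraries and for EHD2 3 of the 6 lowest. For CAV2 they held 3 of the 6 highest, with a median of 48.2 CPM against 27.9 in the others. These were presorted negative Bottom 4 library 2 (74.3), Bottom 5 negative 2 (66.0) and Bottom 10 positive 3 (52.3), each the highest of its group. In the same libraries 1.85 to 2.27% of reads were ambiguous between genes, against 1.54 to 1.74% elsewhere, and 9.16 to 13.3% matched more than 1 place, against 7.8 to 9.21%. The part of read assignment in these levels was not tested.

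Across the 30 libraries PACSIN3 correlated with the second component at r = 0.88, PACSIN2 at -0.73 and EHD2 at -0.75. CAV1 and PTRF followed the first component instead, at 0.92 and 0.83, and CAV2 did so at 0.73. These values describe libraries that share groups and depth, and carry no test.

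**Figure D5:**
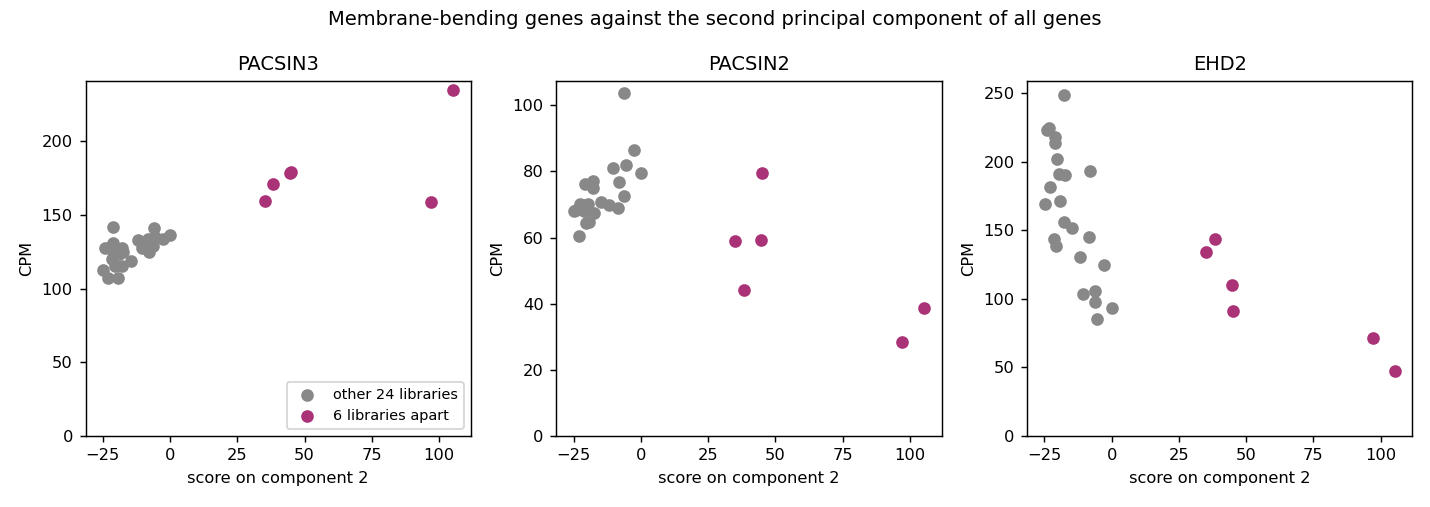
CPM of PACSIN3, PACSIN2 and EHD2 against the score of each library on the second principal component of all genes. The 6 libraries with scores above 30 are the 6 highest for PACSIN3 (159.0 to 234.5 CPM) and hold 5 of the 6 lowest for PACSIN2.

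CAV1 varied with both PTRF and CAV2 over the 30 libraries. CAV1 correlated with PTRF at r = 0.85 and with CAV2 at 0.83, and the values were 0.86 and 0.55 after group means were removed. CAV2 and PTRF had 0.48 over all libraries and 0.16 within groups. EHD2 had 0.59 with CAV1 and 0.68 with PTRF. PACSIN2 had -0.37 with CAV1, -0.66 with CAV2, 0.05 with PTRF and 0.30 with EHD2. Its PTRF and EHD2 values were -0.56 and -0.66 without the libraries that stood apart. PACSIN3 had -0.20 with CAV1, 0.13 with CAV2, -0.41 with PTRF and -0.72 with EHD2. Its CAV2 and EHD2 values were -0.35 and -0.51 without those libraries. Leaving them out moved PACSIN2 with PACSIN3 from -0.49 to 0.53, and CAV2 with EHD2 from 0.35 to 0.85.

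The balance of CAV1 to its partners was not fixed. The ratio of CAV1 to CAV2 CPM ran from 2.49 to 15.7 with a median of 8.62, and that of CAV1 to PTRF from 0.121 to 1.08 with a median of 0.456. Top 10 negative cells had the lowest group median of the CAV1 to PTRF ratio, with libraries at 0.121, 0.166 and 0.211. Parental negative libraries overlapped these, at 0.161 to 0.517. Bottom 10 negative cells had 0.382 to 0.533, with no overlap with Top 10 negative cells. In the ten-round groups, library 3 was the highest of its group for CAV1 and PTRF in 4 of 4 groups and the lowest for EHD2 in 4 of 4.

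By Pearson correlation of log2 CPM over the 30 libraries, the genes most like CAV1 were AJAP1 (0.959), CTGF (0.953), which encodes a secreted matricellular protein, and IL7R (0.952). For CAV2 they were AP3S1 (0.953), PLA2G16 (0.944) and NMT2 (0.940). For PTRF they were LASP1 (0.948), SDC1 (0.945) and TCF19 (0.935), and for EHD2 SDK1 (0.930), FOSL2 (0.923) and TGM2 (0.922). For PACSIN2 they were STRN4 (0.954), MOGS (0.925) and AMBRA1 (0.923), and for PACSIN3 B3GAT3 (0.940), FAAP20 (0.910) and RPL6 (0.897). By Spearman correlation these were 0.81, 0.72 and 0.77 for PACSIN2 and 0.86, 0.76 and 0.71 for PACSIN3. Without the 2 libraries farthest from the median of the PACSIN gene, the Pearson values were 0.87, 0.86 and 0.80 for PACSIN2. For PACSIN3 they were then 0.90, 0.84 and 0.81. Among genes like CAV1, CAV2 ranked 226 and PTRF 166, with correlations above those of 98.5 and 98.9% of the other tested genes. Neither was among the 3 nearest.

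The other caveola and neck genes gave no calls. Of 14 listed, 11 were tested, and 0 were called by edgeR in any of the 15 comparisons or in the paired fits. CAV3, the muscle caveolin, had at most 3 counts in any library and SDPR (CAVIN2) at most 8. PRKCDBP (CAVIN3) lay between 53.8 and 150.4 CPM without scaling, and its paired value between crossed and uncrossed cells was -0.22 ± 0.19 in the negative sort and 0.66 ± 0.19 in the positive (edgeR adjusted p = 0.536 and 0.0719). EHD4, a relative of EHD2, had paired values of 0.83 ± 0.23 (0.0563) and 0.51 ± 0.23 (0.235). The paired median of the list was 0.055 in the negative sort and -0.077 in the positive. In each unpaired fit 1 of 11 genes was at an unadjusted p below 0.05, against 9.04 and 9% of all genes.

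Coat genes of the clathrin route, which forms pits without caveolins, gave 0 calls among 20 genes in the unpaired edgeR fits. In the paired fit FCHO2, an F-BAR protein that starts clathrin pits, rose by 0.48 ± 0.12 among negative cells (edgeR adjusted p = 0.036). It was 1 of 20 clathrin genes, a share close to the 4.7% of all genes called higher there. Of 9 flotillins and other scaffolds tested, STOM fell by 0.48 ± 0.099 in the positive sort of the paired fit (adjusted p = 0.0157), and 0 were called unpaired. Of all genes, that paired fit called 7.75% in either direction. Kinases of caveolin and growth regulators gave 0 calls among 10 genes in the 15 unpaired comparisons. Between crossed and uncrossed negative and positive cells, 1 and 0 genes were at an unadjusted p below 0.05, against 9.04 and 9% of all genes.

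Targets of YAP and TEAD, a transcription pathway that responds to cell shape, were tested gene by gene. CTGF and CYR61 serve as readouts of this pathway. Whether the targets move with the caveolins was not tested. Of 24 tested, the unpaired fit called 3 higher in Bottom 10 over Top 10 negative cells (AJUBA, NUAK2 and DLC1). It called 2 higher in positive cells (DLC1 and GADD45B) and 0 lower, where 1.33 and 0.943% of all genes were called. DLC1 was also called higher in presorted negative Bottom 4 over Parental negative and in presorted positive Bottom 5 over Top 5 positive cells. In Bottom 5 over Parental negative cells, where CAV2 was called, edgeR called 0 of 24 and 0.858% of all genes. Of the 24, 7 were at an unadjusted p below 0.05, against 9.14% of all genes. The paired fit called 10 higher and 0 lower in the negative sort, where 4.7% of all genes were called higher. Among positive cells it called 8 higher and 1 lower (RBMS3, at -0.81 ± 0.20, edgeR adjusted p = 0.0397). Of all genes, 3.93% were called higher there and 7.75% in either direction. The paired medians of 0.77 and 0.69 stood beside -0.0021 and 0.022 for all genes. CTGF rose by 2.06 ± 0.34 (edgeR adjusted p = 0.00452) and 1.35 ± 0.32 (0.032), and DLC1 by 2.30 ± 0.31 (0.00161) and 1.51 ± 0.30 (0.0127). ITGB4 rose in the same paired fits, by 2.76 ± 0.23 (9.1e-05) and 2.12 ± 0.21 (0.00037).

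The protein-coding genes around the caveolins on chromosome 7 run in the order MDFIC, TFEC, TES, CAV2, CAV1, MET, CAPZA2 in the annotation used for gene order. Between crossed and uncrossed cells after 10 rounds, edgeR called 0 of 7 neighbours unpaired and 0 of 6 paired. At an unadjusted p below 0.05 there were 0 in each sort, against 9.04 and 9% of all genes. MET, the receptor of hepatocyte growth factor next to CAV1, had paired values of 0.60 ± 0.19 (edgeR adjusted p = 0.0784) and 0.45 ± 0.19 (0.182). It was called in presorted positive Bottom 5 over Top 5 positive cells, at 211.2 against 91.7 CPM (1.20 ± 0.31, 0.0433). MDFIC was called higher in presorted negative Bottom 4 over Parental negative cells, by 0.51 ± 0.12 (0.0299), in the comparison where CAV2 rose by 1.56.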

How the data were processed

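The deposited files hold raw counts of reads per gene, which the authors made with tools that the submitters' processing notes name as STAR, HTSeq and DESeq on hg19. Versions, strand setting and annotation are not given in the sources used here, so reads of overlapping or antisense genes may not be separable. Rows that name no gene held 22.1 to 31.8% of reads and were left out. No library copied another of its group (chi-square per degree of freedom at least 11.6).

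Genes were filtered with filterByExpr (minimum count 10, total 15), scaled with TMM and tested two-sided with edgeR 4.0.16 (quasi-likelihood, R 4.3.3, limma 3.58.1). The 10 groups entered 1 fit, and Benjamini-Hochberg adjustment ran over the 15381 genes, with calls at 0.05. Log levels used a prior count of 2. The fit was tested on simulated data.

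Replicate numbers were taken as pairs where all 3 same-numbered pairs of libraries correlated above 0.1 after removal of group means. This held for Bottom 10 against Top 10 (0.265 to 0.693), the sorts of these cells (0.278 to 0.791), Bottom 5 against Parental negative (0.379 to 0.590) and the presorted groups (0.199 to 0.435). The labels state no pairing. The paired fit of the 4 ten-round groups tested 14587 genes.

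The members and gene lists were chosen with earlier results of these data known. Named genes are the 6 members, ITGB4, up to 4 called genes of a list with the smallest p and the 3 genes most correlated with each member. PRKCDBP, EHD4, CTGF, RBMS3, MET, CAV3 and SDPR were named after their values were seen. Alternatives were DESeq2 1.42.0, RLE factors, no filter, replicate blocks, only the groups compared, and leaving out single libraries or the 6 that stood apart. Chosen after seeing the data were paired fits without 1 pair, the ten-round groups without a block, and a block with only the groups compared. Promoter sequences are RefSeq's, and transcript lengths GENCODE's.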

Additional observations from a re-analysis of the deposited data

How the results depend on the processing

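Counts of called members stayed within 1.5 times the main count under 218 pairs of comparison and alternative and left that range under 25. In Bottom 5 against Parental negative the count of 1 (CAV2) became 0 with RLE factors, with no filter, with only the groups compared and without the libraries that stood apart, and 2 (CAV1 and CAV2) with the replicate block and only the groups compared. In presorted Bottom 4 against Parental negative the count of 1 became 0 with only the groups compared. In Bottom 10 against Top 10, negative sort, the count of 0 became 3 with the replicate block of the 4 ten-round groups, and 3, 1 and 3 with that block without pair 1, 2 and 3. It became 1 (EHD2) with only the 4 ten-round groups and no block, with only the groups compared and without the libraries that stood apart. In the positive sort the count of 0 became 4 with the replicate block of the 4 ten-round groups, 1 and 3 without pair 1 and 3, and 1 without the libraries that stood apart. Leaving out each library in turn gave 0 to 1 members in presorted Bottom 4 and in Bottom 5 against Parental negative, and 0 to 2 in Top 5 against Parental positive and in presorted Bottom 5 against Top 5 positive. With the replicate number as a block over all 10 groups no count changed.

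Among log2 fold changes larger than their SE in the main fit, signs turned in 2, neither of them called. The interaction of crossing and sort for PACSIN3 was -0.053 without the libraries that stood apart, against 0.30. PTRF in presorted Bottom 5 against Top 5 positive ran from -0.0077 (without Top 5 positive replicate 1) to 0.616 over the fits that left out each library, against 0.37. The cause was not tested. Values smaller than their SE were not counted, and signs turned among them too. CAV1 in Bottom 10 against Parental negative, at 0.23, ran from -0.23 to 0.84 when each library was left out. With the median transcript, CAV2, PACSIN2 and PACSIN3 levels per kilobase moved by more than 1.5 times, to 29.1, 41.7 and 176.6 CPM. RLE factors moved the median of all genes by less than 0.1 on the log2 scale in every comparison. Depth gave each member at least 242 counts in a library, so the spread between libraries and the 3 replicates, not counting error, set the precision.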
